A study of Mus musculus with 30 samples.

Results

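The lysyl oxidase family comprises 5 genes in the mouse, *Lox* and its paralogs *Loxl1*, *Loxl2*, *Loxl3* and *Loxl4*, and all 5 are among the 47643 genes of the deposited table. They were chosen by name. The family was selected on a measured value of these libraries, the rise of *Lox* from a low level in every Cre-positive group, so the differences of *Lox* from WT are given as a description and with no test. Differences of the paralogs, and of *Lox* between Homo and Het mice, were not used for that choice and were tested.

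Lysyl oxidases are copper-dependent amine oxidases that are secreted and oxidise lysine side chains of collagen and elastin, from which the covalent cross-links of the extracellular matrix form. *Lox* and *Loxl1* encode proenzymes that BMP1-type proteases activate, whereas the products of *Loxl2*, *Loxl3* and *Loxl4* carry scavenger receptor cysteine-rich domains. Fibroblasts and vascular smooth muscle cells are classical sources of LOX, and *Lox* is a known target of TGF-beta and hypoxia signalling in several tissues.

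The study asked how loss of *Bin1*, which encodes a membrane-bending adaptor protein, alters gene expression in microglia of each sex. RNA of microglia sorted as CD11b+ CD45med cells from brains of 3 month-old mice was sequenced, and 30 libraries of 6 groups were analysed here. Homo mice were *Bin1* flox/flox::*Cx3Cr1*-Cre+ (5 male, 5 female) and Het mice *Bin1* wt/flox::*Cx3Cr1*-Cre+ (6 male, 5 female). Mice labelled WT (5 male, 4 female) were *Bin1* wt/flox without Cre according to a legend of the paper, so all 6 groups carried at least 1 floxed allele if that legend holds. The Cre allele is a knock-in at *Cx3cr1*, which acts in microglia and in other cells that express *Cx3cr1*, and each Cre-positive group carried it. Presence of Cre, the altered *Cx3cr1* allele and loss of the first *Bin1* copy therefore cannot be told apart. Libraries are named by genotype, sex and mouse number, as in Het-F-0206. The sample labels instead describe microglia of newborn pups in culture, with Tau, LPS and ATP among the agents given, and a stranded TruSeq kit in place of the SMARTer and Nextera XT kits of the paper. What the values measure differs between these descriptions, the paper was followed, and the choice between these descriptions was not tested.

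The values are FPKM, fragments per kilobase of transcript at an equal library size. From the value that a single fragment gives to genes with 1 transcript, the libraries held between about 6640000 and 13990000 mapped fragments (median 9930000). Depth relative to the median library had a group median of 1.18 in male and 1.12 in female WT mice, and between 0.916 and 1.00 in the Cre-positive groups. *Bin1* had mean FPKM of 258.3 and 253 in male and female WT, 120 and 134 in Het, and 49.7 and 41.2 in Homo mice. The libraries labelled Het-F-0206 and Het-M-0199 went against their labels, with *Bin1* at 42.7 and 51.8 FPKM, within the range of Homo libraries of their sex. *Cx3cr1* had mean FPKM of 2043 and 2061 in male and female WT, 933 and 917 in Het, and 928 and 1168 in Homo mice. It stood at 13.9 FPKM in the library labelled Het-F-0206, whereas the other 29 libraries were at 610 FPKM or more. Microglial markers were high in all libraries (7 of 7 detected, summed FPKM 15832 to 23414). Mouse numbers were either early, up to that of WT-F-0122, or late, beginning with that of WT-M-0176, and 3 male Homo, 2 male Het and 1 female WT mice had early numbers.

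*Lox* (ENSMUSG00000024529) lies on the minus strand of chromosome 18 of GRCm38 from 52516067 to 52529867, 20.1 Mb from *Bin1*. It was low in WT mice and higher in every Cre-positive library. In male WT mice, *Lox* was at 0.668, 0.600, 0.0999, 0 and 0.225 FPKM. The library at 0, WT-M-0202, was the only one of the 30 without a *Lox* fragment, and a count of 0 allows up to 3 fragments, or 0.0576 FPKM at its depth. In female WT mice, *Lox* was at 0.405, 0.608, 0.467 and 0.401 FPKM, a narrower spread inside the male range.

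Among male Cre-positive mice, the 6 Het libraries had *Lox* between 1.42 and 2.45 FPKM, with a median of 1.69. The 5 male Homo libraries were at 2.49, 2.06, 4.07, 2.62 and 2.81 FPKM. Thus, both male Cre-positive groups lay above all male WT libraries, and Homo libraries were mostly above those of Het mice, with an overlap.

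Among female Cre-positive mice, the 5 Het libraries were at 1.71, 6.10, 2.13, 3.14 and 1.10 FPKM, where the library labelled Het-F-0206 gave the value of 6.10. The 5 female Homo libraries were at 2.53, 2.61, 2.21, 2.30 and 2.25 FPKM. Female Het mice therefore held both the lowest and the highest *Lox* value of the Cre-positive mice, whereas female Homo libraries were the most alike of any group with regard to their ratio of SD to mean.

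**Figure D1:**
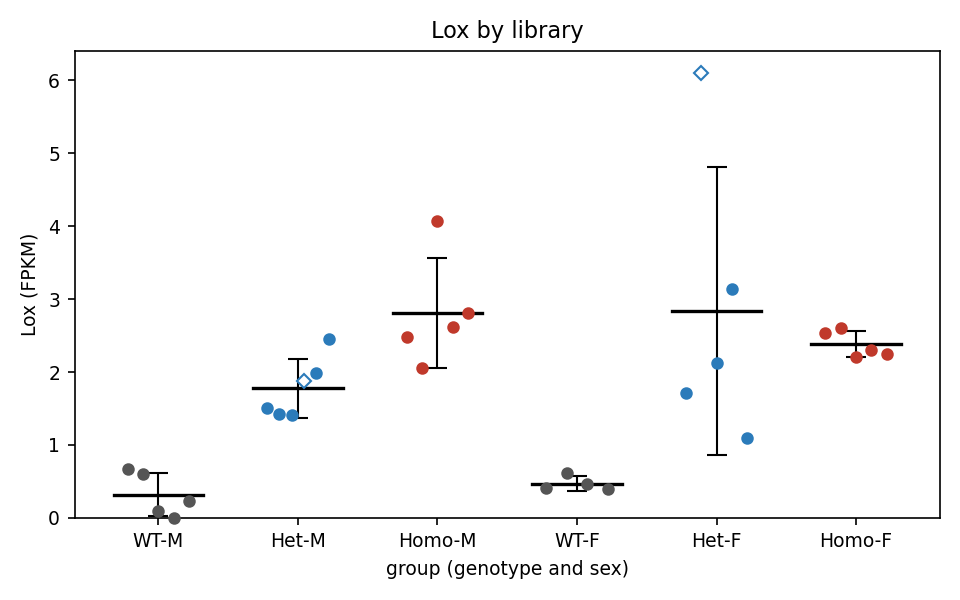
*Lox* FPKM in each of the 30 libraries (points) by group, with the group mean (line) and SD (bars). Open diamonds mark the libraries labelled Het-M-0199 and Het-F-0206. All 9 WT libraries lie at or below 0.668 FPKM and all 21 Cre-positive libraries at or above 1.10 FPKM.

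In order of their means ± SD, the groups had *Lox* FPKM of 0.318 ± 0.2997 (male WT, n = 5), 0.470 ± 0.0969 (female WT, n = 4), 1.78 ± 0.408 (male Het, n = 6), 2.38 ± 0.179 (female Homo, n = 5), 2.81 ± 0.759 (male Homo, n = 5) and 2.84 ± 1.97 (female Het, n = 5). The only gap in this order was between WT and Cre-positive mice: the highest WT library was at 0.668 and the lowest Cre-positive library at 1.10 FPKM, and the other neighbours in the order overlapped. Female Het mice were at 2.02 ± 0.859 FPKM (SD, n = 4) once the library labelled Het-F-0206 was left out. Without the library labelled Het-M-0199, which had *Lox* at 1.88 FPKM, male Het mice were at 1.76 ± 0.452 FPKM (SD, n = 5). Whether more cells expressed *Lox*, or each cell held more of its RNA, cannot be told apart in bulk RNA.

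As ratios of mean FPKM, *Lox* was 8.82-fold higher in male Homo, 5.58-fold in male Het, 5.06-fold in female Homo and 6.03-fold in female Het mice than in WT mice of the same sex. The choice of the family rests on these differences. Each of them was without overlap between the groups, as was the case upwards for 2.56%, 0.515%, 1.65% and 1.58% of the 16897 genes tested in the same order of comparisons, and nothing is read from this for *Lox*. On the log2(FPKM + 0.1) scale of the limma fit, which understates changes of low genes, the differences were 3.06 (standard error 0.40), 2.45 (0.39), 2.13 (0.43) and 2.14 (0.43). Without WT-M-0202, where *Lox* was at 0, the male values were 2.63 and 2.02. The female Het value was 1.82 when the library labelled Het-F-0206 was left out. Within late mouse numbers alone, the 4 values were 3.11, 2.61, 2.06 and 2.08. The male minus female value was 0.93 (standard error 0.59) in Homo and 0.30 (0.58) in Het mice.

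In fragments, *Lox* amounted to an estimated 0 to 34.3 in male WT and 21.0 to 28.3 in female WT libraries, and to 47.7 to 288 in Cre-positive libraries. The estimate takes the shorter of the 2 annotated coding transcripts (4468 bases), and since the authors' program divides fragments between transcripts, only 8 of 29 values above 0 came out whole within 0.06. For WT-M-0178, an estimated 6 fragments leave an exact Poisson interval of 0.0367 to 0.217 FPKM (95%), and the 10 fragments of WT-M-0258 one of 0.109 to 0.416. Precision was thus lowest in male WT mice, and these intervals cover counting error only.

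Loss of the second *Bin1* copy was compared among Cre-positive mice. Of the 6 male Het libraries, 5 had less *Lox* than the lowest male Homo library (2.06 FPKM). The log2 difference between male Homo and Het mice was 0.61 (standard error 0.39, 95% interval -0.18 to 1.41), which did not pass the test (limma, adjusted p = 0.998, unadjusted p = 0.125). At the same threshold, an adjusted p below 0.05 and a fold above 1.5, 0% of genes were called in this comparison (0 of 16897). An unadjusted p below 0.05 was reached by 651 genes. *Bin1* itself was not called in males (log2 difference -1.21, limma, unadjusted p = 3.7e-05, adjusted p = 0.624). It was called between female Homo and Het mice (-1.55, limma, adjusted p = 0.0145). A missing call for *Lox* in males therefore does not show that its level was equal. In females, 3 of 5 Het libraries were below and 2 above the whole range of Homo libraries (2.21 to 2.61 FPKM). The difference of female Homo and Het mice was -0.01 (standard error 0.40, 95% interval -0.84 to 0.81, limma, adjusted p = 1), against 0.0118% of genes called (2 of 16897). It was 0.31 without the library labelled Het-F-0206. These intervals leave room for changes of more than 1.5-fold in either sex.

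The paralogs covered a wide range of levels, in FPKM and therefore per length. *Loxl3* was the highest member at a mean of 10.9 FPKM over the 30 libraries, above 63.4% of the genes tested, followed by *Lox* (1.81 FPKM, above 37.4%), *Loxl2* (0.433 FPKM, above 21.8%) and *Loxl4* (0.121 FPKM, above 3.25%). *Loxl1* had a mean of 0.00411 FPKM, below the minimum mean of 0.1 FPKM, and was not tested. Hence 4 of the 5 members passed the filter on low values. Neither *Loxl2* nor *Loxl3* was at 0 in any library, whereas *Loxl4* was at 0 in 2 and *Loxl1* in 27 of 30.

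**Figure D2:**
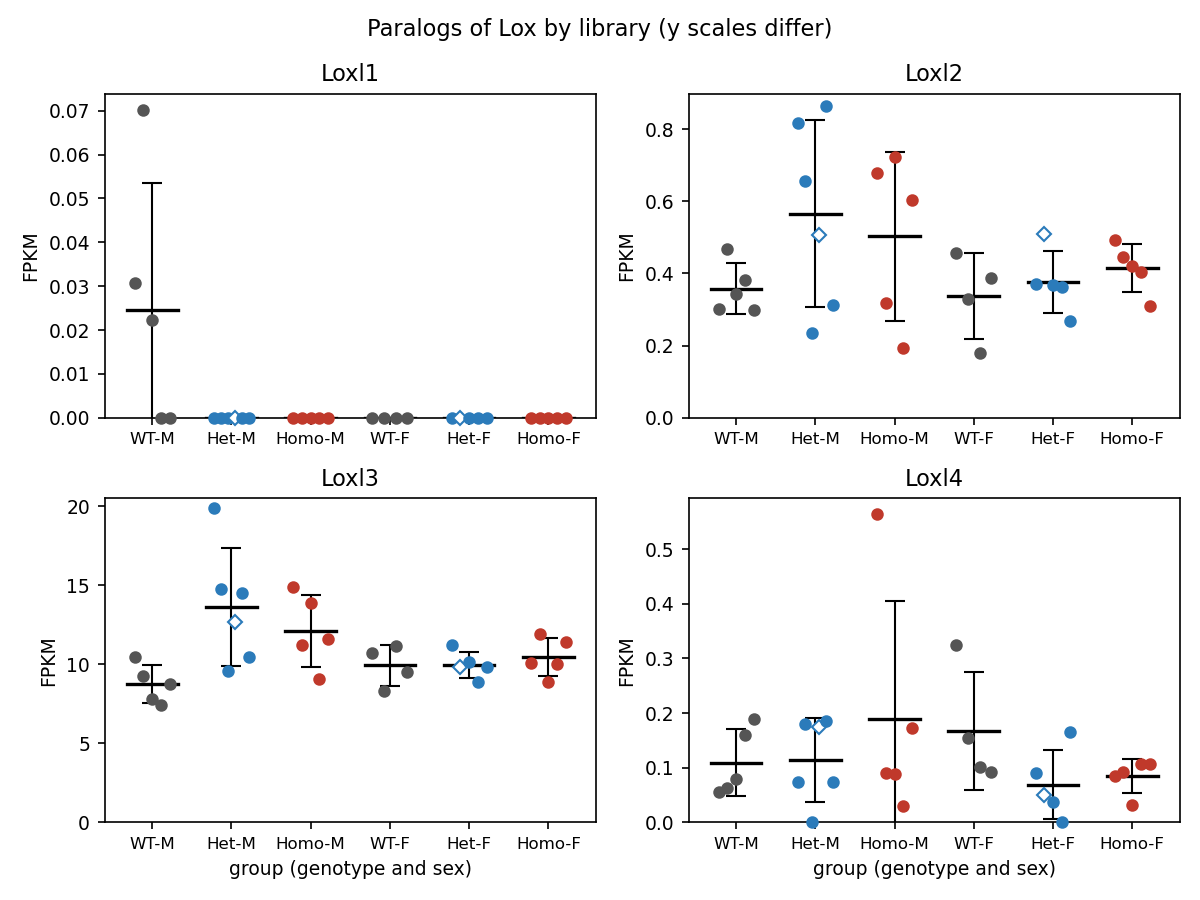
FPKM of the 4 paralogs of *Lox* in each library (points) by group, with the mean (line) and SD (bars), and with y scales that differ between panels. Open diamonds mark the libraries labelled Het-M-0199 and Het-F-0206. *Loxl1* is above 0 in 3 male WT libraries only, and the Cre-positive libraries of the other paralogs overlap those of WT mice in each sex.

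*Loxl3* (ENSMUSG00000000693; chromosome 6, plus strand, 83034173 to 83052562) encodes a family member with scavenger receptor domains that is required for palate and spine development. In male WT mice it was at 10.5, 9.28, 7.79, 7.42 and 8.75 FPKM. The 6 male Het libraries lay between 9.56 and 19.9 FPKM, with a median of 13.6. The 5 male Homo libraries were at 14.9, 11.2, 13.9, 9.10 and 11.6 FPKM. In each of these Cre-positive groups, 4 libraries were above the highest male WT library and the rest overlapped with WT.

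*Loxl3* of female WT mice was at 10.7, 8.34, 11.2 and 9.51 FPKM. Female Het libraries were at 11.2, 9.83, 10.1, 8.88 and 9.85 FPKM. Female Homo libraries were at 10.1, 11.95, 8.88, 10.0 and 11.4 FPKM. The 3 female groups covered nearly the same range.

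By limma with adjustment over all genes tested, the log2 difference of *Loxl3* was 0.53 between male Het and WT (standard error 0.12, 95% interval 0.28 to 0.78, adjusted p = 0.0668) and 0.38 between male Homo and WT mice (standard error 0.13, 95% interval 0.12 to 0.63, adjusted p = 0.0859). Neither passed the threshold, although the unadjusted p were 0.000134 and 0.00585. For comparison, 0.154% and 1.81% of all genes were called in these contrasts. The call in male Het mice turned on single libraries: without Het-M-0197, the lowest of its group, the difference was 0.60 (adjusted p = 0.0246), and without WT-M-0176, the highest of its group, 0.60 (adjusted p = 0.0478).

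*Loxl3* also had higher means at early than at late mouse numbers in both male Cre-positive groups. Early numbered libraries had a mean of 17.3 FPKM (n = 2) against 11.8 FPKM (n = 4) for late numbers in male Het mice, and 13.3 FPKM (n = 3) against 10.4 FPKM (n = 2) in male Homo mice. Early and late libraries overlapped in male Homo mice (11.2 to 14.9 against 9.10 to 11.6 FPKM). In male Het mice, early libraries ran from 14.7 to 19.9 FPKM (n = 2) and late ones from 9.56 to 14.5 FPKM (n = 4). With so few libraries, no separation is read from this. The only early female library, WT-F-0122, was at 10.7 FPKM, inside the range of late female WT libraries (8.34 to 11.2 FPKM). No male WT mouse had an early number. Within late numbers, the differences from WT were 0.40 in Het (limma, adjusted p = 0.321) and 0.24 in Homo males (adjusted p = 0.778), and with number range as a covariate they were 0.44 (adjusted p = 0.146) and 0.22 (adjusted p = 0.677). Relative depth in male Het mice ran from 0.723 in Het-M-0100, the highest for *Loxl3*, to 1.06 in Het-M-0197, the lowest. In male Homo mice, the deepest library, Homo-M-0190 (1.41), was in the middle at 11.6 FPKM. The part of mouse number or depth in the male difference was not tested.

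In females, the differences of *Loxl3* from WT were 0.07 in Homo (95% interval -0.20 to 0.35) and 0.01 in Het mice (95% interval -0.27 to 0.28), both with an adjusted p of 1 by limma, where 0.071% and 0.13% of genes were called. The male minus female difference in Het mice was 0.53 (standard error 0.18, 95% interval 0.16 to 0.89, unadjusted p = 0.00685, adjusted p = 0.860 by limma). That in Homo mice was 0.30 (standard error 0.18, adjusted p = 0.594). Of all genes, 0% passed in either interaction. A difference between the sexes was therefore not called for *Loxl3*. The 3' end of *Loxl3* overlaps *Htra2*, a gene of the opposite strand at a mean of 90.5 FPKM, and since the kits named in the paper do not mark strand and no strand setting of the counting is stated, reads of the shared stretch are uncertain. *Htra2* itself passed the test in 0 of the 9 contrasts, and its log2 differences from WT were 0.33 in male Homo and 0.32 in male Het mice (adjusted p = 0.185 and 0.327 by limma).

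*Loxl2* (ENSMUSG00000034205; chromosome 14, plus strand, 69609068 to 69695834) encodes an enzyme that cross-links type IV collagen of basement membranes. It was at 0.302, 0.467, 0.343, 0.381 and 0.299 FPKM in male WT and at 0.457, 0.329, 0.179 and 0.387 FPKM in female WT mice. Male Het libraries ranged from 0.234 to 0.865 FPKM (median 0.582) and male Homo libraries were at 0.678, 0.319, 0.723, 0.194 and 0.602 FPKM. Both male Cre-positive groups spread below and above the WT range. Female Het libraries (0.268 to 0.510 FPKM) and female Homo libraries (0.311 to 0.494 FPKM) overlapped those of WT over most of their range.

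No difference of *Loxl2* passed the test. The log2 values against WT were 0.23 in male Homo, 0.38 in male Het, 0.27 in female Homo and 0.14 in female Het mice, with standard errors of 0.28 to 0.31 and adjusted p of 0.529 or more by limma. Over all Cre-positive mice the difference was 0.26 (95% interval -0.13 to 0.64). *Gm27177*, an antisense gene at a mean of 2.26 FPKM, runs across much of *Loxl2*, and its level is uncertain for the same reason.

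*Loxl4* (ENSMUSG00000025185; chromosome 19, minus strand, 42593982 to 42612813) encodes another member with scavenger receptor domains. It was near the limit of detection, with an estimated 0 to 16 fragments in a library. Male WT libraries were at 0.0551, 0.0627, 0.0796, 0.161 and 0.190 FPKM, and female WT libraries at 0.324, 0.154, 0.102 and 0.0913 FPKM. It was at 0 in Het-M-0197 and Het-F-0220, and the other Cre-positive libraries were between 0.0290 and 0.564 FPKM. The highest value was that of Homo-M-0093, where 14 fragments stood behind 0.564 FPKM, and the remaining male Homo libraries were at 0.172 FPKM or less. The differences from WT were 0.21 in male Homo, -0.05 in male Het, -0.48 in female Homo and -0.68 in female Het mice (standard errors 0.38 to 0.42, adjusted p of 0.790 or more by limma). Without Homo-M-0093 the male Homo value was -0.13. The 95% intervals ran from -0.60 to 1.01 in male Homo, -0.82 to 0.72 in male Het, -1.34 to 0.37 in female Homo and -1.53 to 0.18 in female Het mice, on a scale that understates changes of genes as low as *Loxl4*.

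*Loxl1* (ENSMUSG00000032334; chromosome 9, minus strand, 58287738 to 58313186) encodes the enzyme that is tied to elastic fibre renewal. It was at 0.0308, 0.0702 and 0.0223 FPKM in 3 male WT libraries, which is 1, 3 and 1 fragments, and at 0 in the other 27 libraries, including all 21 of Cre-positive mice. With fewer than 4 fragments in any library, no fold is given.

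Across the 9 contrasts, the 3 paralogs tested gave 27 tests, of which 0 were called by limma and 4 had an unadjusted p below 0.05, all of them for *Loxl3*. These were the contrasts of male Homo and male Het with WT mice, the male minus female difference in Het mice and the comparison of all Cre-positive with all WT mice, in which 22.5%, 14.2%, 4.53% and 14.5% of all genes had such a p. In the last of them, *Loxl3* differed by 0.25 (standard error 0.08, 95% interval 0.08 to 0.41, adjusted p = 0.128 by limma) and 0.823% of genes were called. For *Lox*, the corresponding value was 2.45 (standard error 0.26).

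**Figure D3:**
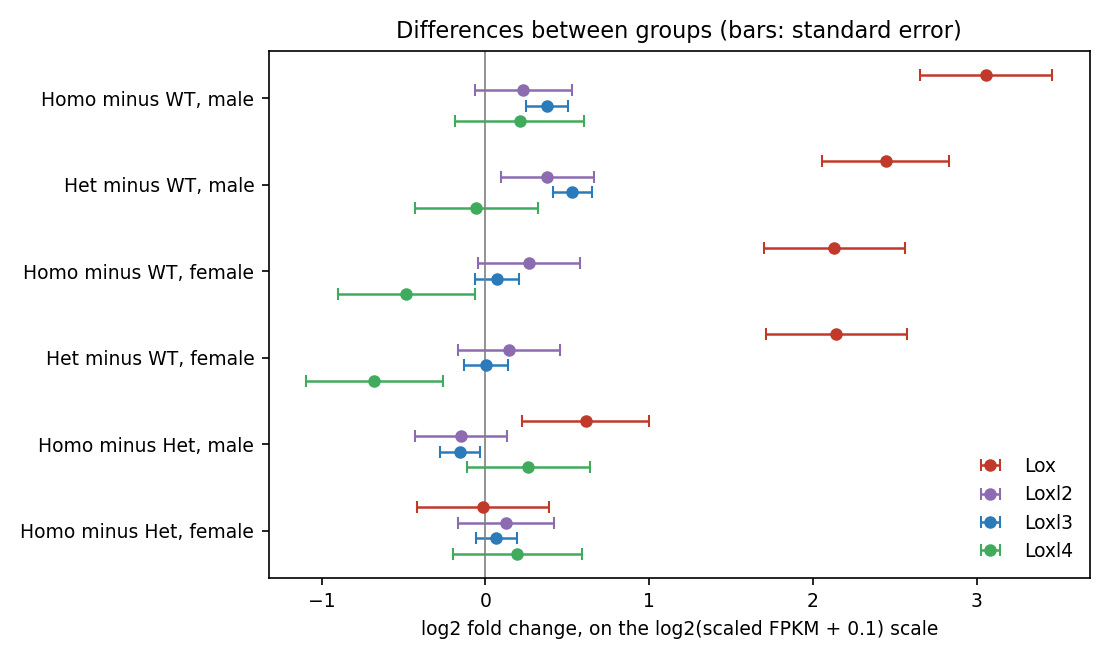
Log2 fold changes of the 4 members tested, on the log2(scaled FPKM + 0.1) scale, in 6 contrasts (rows), with standard errors (bars). *Lox* lies between 2.13 and 3.06 in the 4 contrasts with WT, which were the basis of its choice, and the paralogs between -0.68 and 0.53.

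The composition of the family differed between WT and Cre-positive mice, following the level of *Lox* that it was selected on. Of the summed FPKM of the 5 members, *Lox* made up a share (mean ± SD) of 3.02% ± 2.64 (male WT, n = 5) and 4.41% ± 1.38 (female WT, n = 4) without Cre. Its share was 11.6% ± 4.05 (male Het, n = 6), 18.1% ± 3.86 (male Homo, n = 5), 20.3% ± 11.03 (female Het, n = 5) and 17.9% ± 1.34 (female Homo, n = 5) with Cre. *Loxl3* remained the largest part in every group, with a mean share between 76.3% and 91.7%. The library labelled Het-F-0206 had the largest share of *Lox*, 37.0%. *Lox* was at most 7.29% of the level of *Loxl3* in any WT library, and at least 7.56% in any Cre-positive library.

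**Figure D4:**
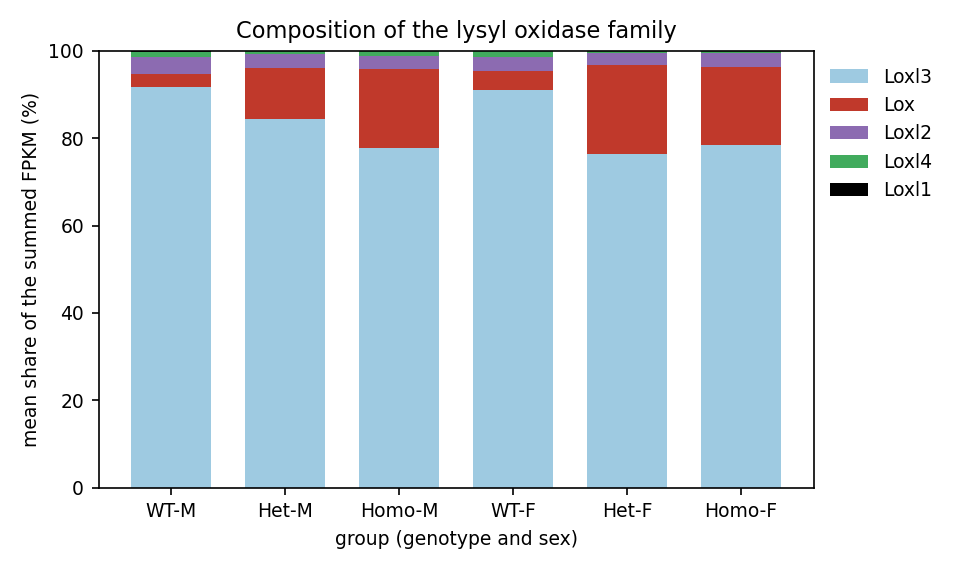
Mean share of each member in the summed FPKM of the lysyl oxidase family (y axis, %) by group. *Loxl3* holds 91.7% and 90.9% in male and female WT mice and 76.3% to 84.3% in Cre-positive groups, in which *Lox* holds 11.6% to 20.3%.

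Genes that act with the enzymes or upstream of them were examined as 6 lists with 51 genes, of which 32 reached the minimum mean of 0.1 FPKM. By limma, 0 of these 32 were called in any of the 9 contrasts. At an unadjusted p below 0.05, there were 10 in male Homo, 9 in male Het, 0 in female Homo and 1 in female Het mice against WT, and all of these were lower in Cre-positive mice. Of all genes tested, 22.5%, 14.2%, 3.49% and 3.95% passed this unadjusted threshold in the same order of contrasts.

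RNA of substrate genes was nearly absent from these libraries, and substrate protein was not measured. None of 8 genes for elastin and fibrillar or basement membrane collagens reached a mean of 0.1 FPKM, and the highest were *Col1a2*, a chain of type I collagen, at 0.0321 FPKM and *Col5a1*, a chain of type V collagen, at 0.0269 FPKM. *Col1a2* was at 0 in 22 of 30 libraries.

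Of 10 genes that process or scaffold the enzymes, 5 were tested. *Efemp2*, whose product fibulin-4 presents LOX to tropoelastin, was at a mean of 7.53 FPKM. *Postn*, whose product periostin binds BMP1 and collagen, had FPKM (mean ± SD) of 5.56 ± 1.44 (WT, n = 5), 3.73 ± 0.888 (Het, n = 6) and 3.87 ± 0.894 (Homo, n = 5) in males. The female values were 6.16 ± 1.32 (WT, n = 4), 4.34 ± 0.803 (Het, n = 5) and 4.69 ± 0.524 (Homo, n = 5). Both genes missed the threshold. The log2 differences of *Postn* from WT were -0.58 in male Homo, -0.63 in male Het, -0.37 in female Homo and -0.49 in female Het mice (adjusted p of 0.122 or more by limma), and -0.52 over all Cre-positive mice (adjusted p = 0.0599). Those of *Efemp2* were -0.41 in male Homo mice (adjusted p = 0.0803 by limma), -0.29 in male Het, 0.01 in female Homo and 0.18 in female Het mice.

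Collagen modification was represented by 7 genes tested of 10 listed. *P4hb*, the disulfide isomerase subunit of prolyl hydroxylase, was at a mean of 211 FPKM and *P4ha1*, a catalytic subunit, at 118 FPKM. In males, all 7 had a negative log2 difference from WT, with medians of -0.37 in Homo and -0.35 in Het mice, beside medians of 0.03 and 0.01 over all genes. Early mouse numbers occurred in 3 male Homo and 2 male Het mice but in no male WT mouse, and their part in this was not tested. In females, the medians were 0.02 and -0.02, beside 0.00 and 0 over all genes. Without scaling between libraries, the median over all genes in male Homo mice was 0.11.

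Copper supply comprised 4 genes, all tested. *Atox1*, a copper chaperone that delivers copper to the secretory pathway, was at a mean of 111 FPKM, and *Slc31a2*, a copper transporter, at 48.5 FPKM. Their medians against WT lay between -0.07 and 0.02. Among TGF-beta and hypoxia inducers, 7 of 9 genes were tested, with *Tgfb1*, the ligand, at 116 FPKM and *Hif1a*, the hypoxia-responsive transcription factor, at 48.8 FPKM. Their medians were -0.19 in male Homo, -0.20 in male Het, -0.07 in female Homo and 0.04 in female Het mice. Of 10 hypoxia targets, 9 were tested, with *Ldha*, lactate dehydrogenase A, at 131 FPKM and *Bnip3*, a mitophagy receptor, at 42.1 FPKM. Their medians were -0.30, 0.20, -0.08 and -0.08 in the same order. Of the 16 tested genes of the last 2 lists, 0 were called in any contrast.

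The genes next to *Lox* on chromosome 18 were also read. *Srfbp1*, 24.1 kb away, was at 11.4 FPKM in male WT, 11.3 in male Het, 11.5 in male Homo, 11.3 in female WT, 11.7 in female Het and 11.4 in female Homo mice, and its largest absolute log2 difference from WT was -0.09 (standard error 0.12). *Zfp474*, 86.0 kb away on the other side, had a mean of 0.00711 FPKM. An antisense gene of the opposite strand overlaps the start of *Lox*, and no FPKM is available for it. Since the kits named in the paper do not mark strand and no strand setting is stated, reads of that shared stretch are uncertain. The part of this overlap in the level of *Lox* was not tested.

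Markers of cells that are classical sources of *Lox* were low, with fibroblast sums at a group median of 0.465 FPKM or less. Of 6 fibroblast markers, 1 was at 0 in all libraries and 5, this one included, had a mean below 0.1 FPKM. The summed FPKM ranged from 0.165 to 0.701 in male WT, 0.143 to 3.37 in male Het and 0.0694 to 0.709 in male Homo mice. In females, it ranged from 0.357 to 0.575 in WT, 0 to 0.649 in Het and 0 to 2.07 in Homo mice. The highest sum, 3.37 FPKM, was that of Het-M-0108, where *Lox* was at 1.43 FPKM. All 6 mural cell markers had a mean below 0.1 FPKM, and their sum was at most 0.920 FPKM. Group medians of the marker sums of several other cells differed between WT and Cre-positive mice. Border macrophage markers (6 of 6 detected, sums of 10.4 to 42.3 FPKM) had medians of 37.6 in male WT, 17.5 in male Het, 20.8 in male Homo, 21.4 in female WT, 12.3 in female Het and 14.5 FPKM in female Homo mice. Choroid plexus markers (3 of 3 detected, 0 to 264 FPKM) had medians of 72.2, 5.96, 11.3, 12.1, 0.776 and 1.03 FPKM in the same order. The medians of these sums were thus lower with Cre in both sexes, but single libraries overlapped. Border macrophage sums reached 31.3 FPKM in female Het and 35.6 FPKM in female Homo mice, against 28.0 FPKM in female WT mice. The lowest choroid plexus sum of male WT mice, 0.166 FPKM, was below those of male Het (1.21 FPKM) and male Homo mice (0.351 FPKM).

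Neuron markers (4 of 4 detected, 1.88 to 17.6 FPKM) had medians of 3.14, 6.36, 4.92, 3.21, 4.71 and 4.24 FPKM, and those of oligodendrocytes (4 of 4 detected, 22.9 to 120 FPKM) medians of 27.3, 43.3, 32.2, 29.6, 33.2 and 34.1 FPKM, in the same order. Both sums had higher medians with Cre in each sex. Astrocyte markers (4 of 4 detected) summed to 0.2998 to 4.79 FPKM and endothelial markers (5 of 5 detected) to 6.96 to 15.4 FPKM, with group medians of 0.669 to 1.43 and 10.5 to 12.9 FPKM. Neutrophil markers (5 of 5 detected) had medians of 68.6 in male WT, 11.7 in male Het, 0.575 in male Homo, 40.9 in female WT, 23.1 in female Het and 11.1 FPKM in female Homo mice. Their highest sum, 341.2 FPKM, was that of WT-M-0202, the library without *Lox*. The part of any of these cells in the difference of *Lox* was not tested.

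The genes most like *Lox* were ranked by Pearson's r with *Lox* on the log2 scale over the 30 libraries, which share the difference between WT and Cre-positive mice. They were *Cst7* (0.90), *Chst1* (0.88), *Tmem154* (0.86), *Rxrg* (0.85) and *Pdcd1* (0.84). *Cst7*, which encodes the cathepsin inhibitor cystatin F, was at 10.2 and 8.67 FPKM in male and female WT, 44.1 and 50.9 in Het, and 45.7 and 43.2 in Homo mice. After group means were taken off, the closest genes were *Adap1* (0.71), *Chst1* (0.69), *Lrguk* (0.67), *Axl* (0.65) and *Epb41l3* (0.65). Without the library labelled Het-F-0206, these within-group values were 0.64, 0.59, 0.61, 0.56 and 0.56. The paralogs were less like *Lox*, with r over the 30 libraries of 0.47 for *Loxl3*, 0.27 for *Loxl2* and -0.27 for *Loxl4*. *Bin1* had r = -0.76 over all libraries and -0.31 within groups, and the latter was 0.06 without the library labelled Het-F-0206. These values are descriptions over shared libraries, with no test.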

How the data were processed

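The authors aligned paired reads of sorted microglia to mm10 with OSA4, estimated abundance with RSEM on Ensembl gene models, and deposited FPKM per gene without a logarithm. Their DESeq2 fit of counts was not repeated, since counts were not analysed here. The 30 listed libraries were grouped by their titles, and 6 columns that match no listed sample were not used. According to the paper, 6 samples were removed for few uniquely mapped pairs and high duplication. They came from every group except male Het, with the most from female WT mice. Whether these are the 6 unused columns was not tested. Scaling between libraries used the median of ratios (genes of 1 FPKM or more on average), 0.1 was added, and log2 values of the 16897 genes with a mean of at least 0.1 FPKM were fitted with limma 3.58.1 (R 4.3.3), with an intensity trend and all 6 groups. Called genes passed an adjusted p of 0.05 (Benjamini-Hochberg) and a fold of 1.5. P-values measure the spread between mice.

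Mapped fragments were estimated with Python 3.11.15 from 5265 low genes and, for the value of a fragment, 248 genes with 1 transcript in GENCODE M21 on GRCm38, where FPKM per fragment times length had quartiles of 100.70 and 100.81 after scaling to the median library. The estimate of relative depth and the limma fit were each tested on simulated data, whereas the value of a fragment was not. In the simulation, the fit recovered 71% of 200 genes changed 2.5-fold in male Homo mice, and 3 of 145 calls were false.

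Members, marker lists and partner lists were chosen with earlier results of these data known. Named are the members, the 2 highest genes of each partner list, genes of these lists that were called (0 were), the 5 genes most like *Lox* on each scale, neighbours and overlapping genes, *Bin1* and *Cx3cr1*. Overlapping genes not named above are *Gm37513* and *Mir6950* (with *Loxl2*) and *Mir7040* (with *Loxl3*), at means of 0.236, 0 and 0.0502 FPKM. The antisense gene that overlaps *Lox* is *AC161119.1*, for which no FPKM is available. The alternatives tried were a pseudocount of 0.01 or 1, a stricter filter or none, other scalings, array weights, no trend, no fold threshold, the groups compared alone, mouse number range, and leaving out libraries. No protein or promoter sequence is shown.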

Additional observations from a re-analysis of the deposited data

Results flagged for a closer look

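In 25 sets of a member and a group whose values were not all equal, the highest and lowest library was compared with the rest of its group by Dixon's ratio of gap to range, which chance passes in about 1 of 20 groups. It was passed by 2 libraries, both for *Loxl4*. In male Homo mice, Homo-M-0093 was at 0.564 FPKM (ratio 0.732, 14 fragments), the highest *Loxl4* value of the series. In female Homo mice, Homo-F-0228 was at 0.0316 FPKM (ratio 0.712, 1 fragment). *Lox* in the library labelled Het-F-0206 was not among them.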

How the results depend on the processing

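*Lox* stayed higher in all Cre-positive groups than in WT under every alternative run, but its log2 size followed the pseudocount. With 0.01, the male Homo and Het values were 4.01 and 3.37, and the male minus female values 1.68 in Homo and 1.04 in Het mice. With 1, the values were 1.48 (male Homo), 1.05 (male Het), 1.21 (female Homo), 1.26 (female Het) and 1.25 (all Cre-positive), and the male minus female value in Het mice was -0.21. The latter ranged from -0.12 to 0.62 with a library left out, lowest without WT-M-0202. For *Lox* in female Homo minus Het mice, quantile normalization gave 0.011, array weights 0.023 and leaving out the libraries labelled Het-F-0206 and Het-M-0199 0.31, and single libraries left out gave -0.28 to 0.31.

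The count of paralogs called was 0 in all settings except in male Het mice, where leaving out a library gave 0 to 1. Differences of paralogs that turned sign had an adjusted p of 0.858 or more by limma. With mouse number range as a covariate and within late numbers, respectively, *Loxl2* was at -0.045 and -0.0024 in male Homo mice and at -0.033 and -0.051 for male minus female Het mice. *Loxl2* for male minus female Homo mice was 0.018 with a pseudocount of 1 and 0.034 without scaling. *Loxl4* in male Homo mice was at -0.037 by quantile normalization and -0.074 with the covariate, and in male Het mice at 0.11 with array weights. *Loxl3* in female Het mice was at -0.011 by quantile normalization. With a library left out, *Loxl4* ranged from -0.13 to 0.42 in male Homo, from -0.15 to 0.14 in male Het and from -0.079 to 0.48 in male Homo minus Het mice. *Loxl2* ranged from -0.061 to 0.26 in female Het mice, from -0.30 to 0.067 in male Homo minus Het mice and from -0.16 to 0.18 for male minus female Homo mice. *Loxl3* ranged from -0.067 to 0.063 in female Het mice. The causes were not tested. No paired analysis was possible because each library came from a different mouse and the sample titles name no litters. Depth limits *Loxl1*, *Loxl4* and *Lox* in WT mice, with few fragments in a library.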
